A study of Homo sapiens with 16 samples.

Results

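Breast epithelium is built from luminal and basal cells, and 10 genes that mark one or the other lineage were followed through 16 lists of broad H3K27ac peaks. The luminal genes were ESR1, GATA3, FOXA1, ELF5, EHF, KRT8 and KRT18, and the basal genes were TP63, KRT14 and KRT5. They were taken by name from the lineage markers of the breast and not by their values, and they are 10 of the 20046 protein-coding genes of GENCODE release 44. For each gene, the peaks, the base pairs (bp) they covered and the highest fold enrichment over input were recorded within 2 kb of the start site, a window of 4001 bp with the start itself, and within the gene body extended by 50 kb on each side, called the locus here. The lists came from chromatin immunoprecipitation of acetylated lysine 27 of histone H3 in MDA-MB-231 and Hs578T cells, which are triple-negative breast cancer lines. From each line there were CRISPR control cells and cells without the TWEAK receptor Fn14 (Fn14 KO), left untreated or given 10 ng/ml of the cytokine TWEAK for 48 h. All groups, untreated cells included, were starved for 8 h, and the TWEAK was renewed after 24 h. Each of the 8 groups had 2 lists. Each line is 1 cell line, the knockout was made with 2 guides in an inducible Cas9 vector, and the study speaks of genotyped clones without saying how many stand behind each list. The study's methods call the repeats of such experiments biological replicates, whereas the labels only number the 2 lists of a group, and p-values measure only the spread between these lists.

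Luminal cells line the ducts and alveoli and depend on transcription factors such as GATA3, FOXA1 and the estrogen receptor, whereas basal cells lie beneath them and use TP63 and the keratins KRT5 and KRT14. Triple-negative cancers lack the estrogen receptor, and both of the lines used here are known to have lost much of their epithelial character. H3K27ac sits on the nucleosomes beside active promoters and enhancers, so a peak at a start site marks an acetylated promoter and a peak elsewhere marks an acetylated distal site. A peak list records where the mark passed the caller's threshold, and a weaker mark in every cell and a mark in fewer of the cells cannot be told apart in it.

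The lists held 39544 to 47197 peaks that covered 64.2 to 88.9 Mb, and a start-site peak was found for 11532 to 12144 genes in a list. The 4 Hs578T Fn14 KO lists had the longest covered lengths. The reads behind the peaks were not used here, so the depth of each list is unknown and no counting interval can be given. Of the mesenchymal genes, VIM, FN1, ZEB1, SNAI2, CAV1 and CD44 had a start-site peak in all 16 lists, and TWIST1 and CDH2 had none in any list of either line. The line labels could therefore not be checked from these markers, and every comparison of the lines rests on the labels. Over the 28337 regions with a peak in every list the log2 folds of lists of different lines, with genotype and treatment the same, correlated at 0.843 to 0.912, against 0.955 to 0.981 for lists of the same group. TNFRSF12A, the gene of Fn14, had a start-site peak in 16 of 16 lists, of 2326 to 2545 bp, and acetylation of a promoter does not test a CRISPR cut in the gene, so the knockout was not checked by these data.

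Several results below turn on single promoters and distal regions, and 7 of these sequences are shown. The promoters, each 250 bases before to 50 bases after a start, are those of RefSeq on GRCh38.p14, which held a promoter for 8 of the 10 genes (not for KRT18 and KRT14), and they are written along the gene's strand. GATA3 is shown with its upstream promoter, which held a peak in 16 of 16 lists, and with the promoter at its principal start, which held a peak in 0 of 16 lists. TP63 and KRT8 are shown because their promoters held a peak in every list, and the last 3 sequences are the central 300 bases of the regions whose fold rose most with TWEAK in control cells, among the regions of these genes with a peak in every list, read along the plus strand of hg38. Capitals mark every match, on either strand, to 8 short motifs: GGGCGG (the GC box), CCAAT (the CCAAT box), TATAAA (the TATA box), TGACTCA (AP-1), AGATAA (bound by GATA factors), TGTTTAC (forkhead factors), GGAAGT (ETS factors) and GGACTTTCC (NF-kappaB).
GATA3 upstream promoter, chr10:8045083-8045382 (+): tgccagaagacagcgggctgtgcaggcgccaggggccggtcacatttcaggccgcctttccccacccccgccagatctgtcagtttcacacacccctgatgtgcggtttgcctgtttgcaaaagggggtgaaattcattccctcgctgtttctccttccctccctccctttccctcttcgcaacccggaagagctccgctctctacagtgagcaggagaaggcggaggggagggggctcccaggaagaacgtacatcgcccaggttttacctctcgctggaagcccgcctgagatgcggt
GATA3 promoter at the principal start, chr10:8054438-8054737 (+): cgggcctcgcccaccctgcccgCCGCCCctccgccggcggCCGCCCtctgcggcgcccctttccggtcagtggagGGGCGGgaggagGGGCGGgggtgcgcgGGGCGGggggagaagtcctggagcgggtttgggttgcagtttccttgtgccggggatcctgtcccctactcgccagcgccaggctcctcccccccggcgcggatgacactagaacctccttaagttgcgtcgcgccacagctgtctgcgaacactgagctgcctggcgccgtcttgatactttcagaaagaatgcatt
TP63 promoter, chr3:189631139-189631438 (+): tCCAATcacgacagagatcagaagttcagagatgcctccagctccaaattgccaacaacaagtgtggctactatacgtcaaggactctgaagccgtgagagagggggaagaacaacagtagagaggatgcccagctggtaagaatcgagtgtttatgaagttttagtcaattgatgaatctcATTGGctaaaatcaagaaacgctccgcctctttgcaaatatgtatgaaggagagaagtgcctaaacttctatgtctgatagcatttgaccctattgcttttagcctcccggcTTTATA
KRT8 upstream promoter, chr12:52926420-52926719 (-): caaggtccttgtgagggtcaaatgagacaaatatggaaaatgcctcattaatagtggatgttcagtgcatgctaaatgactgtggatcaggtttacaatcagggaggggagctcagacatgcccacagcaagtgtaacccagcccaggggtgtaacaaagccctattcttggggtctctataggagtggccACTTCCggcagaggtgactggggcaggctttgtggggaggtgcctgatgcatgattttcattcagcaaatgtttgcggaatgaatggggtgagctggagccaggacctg
EHF region at -21.6 kb, chr11:34599390-34599689: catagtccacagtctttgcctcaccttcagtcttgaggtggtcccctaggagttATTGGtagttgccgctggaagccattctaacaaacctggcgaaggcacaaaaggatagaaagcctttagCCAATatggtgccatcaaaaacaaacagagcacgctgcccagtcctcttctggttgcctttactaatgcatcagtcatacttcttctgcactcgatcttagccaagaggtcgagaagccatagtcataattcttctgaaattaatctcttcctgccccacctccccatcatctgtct
TP63 region at +79.6 kb, chr3:189710800-189711099: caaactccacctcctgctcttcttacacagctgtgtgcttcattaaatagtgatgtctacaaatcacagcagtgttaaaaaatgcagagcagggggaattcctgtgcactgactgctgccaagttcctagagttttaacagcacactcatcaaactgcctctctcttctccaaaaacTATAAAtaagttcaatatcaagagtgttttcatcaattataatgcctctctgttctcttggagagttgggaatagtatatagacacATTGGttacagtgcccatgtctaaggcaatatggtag
TP63 region at +277.8 kb, chr3:189909015-189909314: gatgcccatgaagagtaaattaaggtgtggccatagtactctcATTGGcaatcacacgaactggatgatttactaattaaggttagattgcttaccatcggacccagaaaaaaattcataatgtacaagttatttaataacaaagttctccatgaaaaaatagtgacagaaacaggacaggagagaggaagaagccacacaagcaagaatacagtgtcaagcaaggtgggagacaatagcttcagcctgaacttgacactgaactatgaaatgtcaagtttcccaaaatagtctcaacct
The GATA3 promoter at the principal start, which had no peak, held 5 GC boxes and was 69.3% G or C, and the acetylated upstream promoter held none of the 8 motifs and was 60.7% G or C. The TP63 promoter held 2 CCAAT matches and 1 TATA match, and the KRT8 promoter held 1 ETS match. The EHF region held 2 CCAAT matches, the TP63 region at +79.6 kb held 1 TATA and 1 CCAAT match, and the TP63 region at +277.8 kb held 1 CCAAT match. Of all 35116 promoters in the table, 45.0% held a GC box, 34.6% CCAAT, 11.5% TATAAA and 22.8% the ETS letters. Of the central 300 bases of 55219 acetylated regions, 31.8% held CCAAT and 17.8% TATAAA. A match is only a run of letters, and most of these letters are common in sequences of this length.

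The first question was whether the luminal and basal genes carried an acetylated promoter, and whether the lines differed in this. A mixed picture was found: 3 genes had a start-site peak in all 16 lists, 5 genes in none and 2 genes in a few lists. The 3 genes always acetylated were the luminal keratin pair KRT8 and KRT18, which form the intermediate filaments of simple epithelia, and the basal transcription factor TP63. For TP63 this holds for the principal start only, since a further start inside the gene, at 158 kb, held a peak in 1 of the 16 lists. The genes without a start-site peak in any list were the luminal regulators ESR1 (the estrogen receptor), GATA3 and ELF5 (an ETS factor of the alveolar lineage) and the basal keratins KRT14 and KRT5. No gene of the 10 had a peak in every list of one line and in none of the other. Of all 20046 genes, 54.4% had a start-site peak in every list, 36.3% in none and 9.26% in some, whereas such a restriction to one line was found for 0.00499% (MDA-MB-231) and 0.0399% (Hs578T). Without the 4 Hs578T Fn14 KO lists, the same 3 genes had a peak in every list and the same 5 in none.

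**Figure D1:**
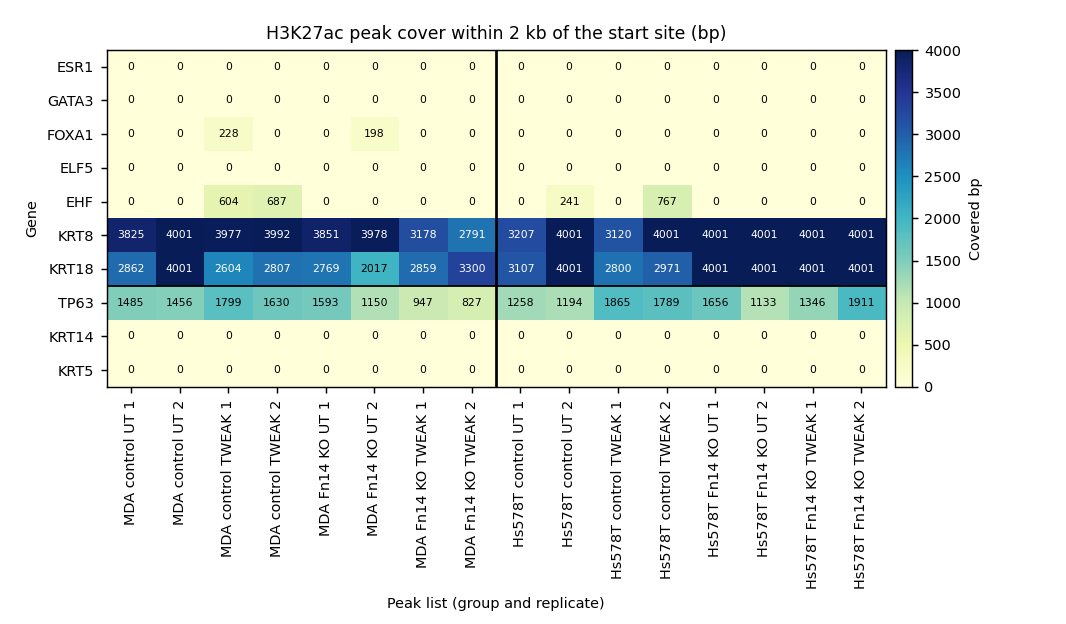
Covered bp within 2 kb of the start site of each of the 10 genes (rows) in each of the 16 lists (columns, by line, genotype and treatment). KRT8, KRT18 and TP63 are covered in every column, ESR1, GATA3, ELF5, KRT14 and KRT5 in none, and FOXA1 and EHF over 198 to 767 bp in 2 and 4 columns.

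FOXA1, a pioneer factor that opens chromatin for the estrogen receptor, had a start-site peak in 2 lists. The peak covered 228 bp at a fold of 3.60 in the first MDA-MB-231 control TWEAK list and 198 bp at a fold of 3.54 in the second MDA-MB-231 Fn14 KO untreated list. These were narrow, and in each case the other list of the group had no peak, and both were lists of MDA-MB-231. EHF, an epithelial ETS factor, had a start-site peak of 604 and 687 bp in both MDA-MB-231 control TWEAK lists, of 241 bp in the second Hs578T control untreated list and of 767 bp in the second Hs578T control TWEAK list, at folds of 2.97 to 3.46. No Fn14 KO list had one. Among the start-site peaks of the same list, these of FOXA1 and EHF ranked low, with a median percentile by fold of 5.39 and 3.44, whereas the median percentile was 77.8 for KRT8, 69.4 for KRT18 and 17.9 for TP63.

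A gene can start at more than one place, and the upstream or internal starts of these genes gave another picture for GATA3 and EHF. The GATA3 locus (gene body chr10:8045378-8075198) has a start at -9.31 kb from its principal start, and this one held a peak in 16 of 16 lists, of 527 to 1404 bp at folds of 3.62 to 6.46. EHF (chr11:34621093-34663288) has internal starts at 0.96, 3.17, 11.4 and 21.3 kb, each with a peak within 2 kb in 16 of 16 lists. Thus GATA3 and EHF were acetylated at a start in every list, although not at the principal one. For KRT8 (chr12:52897187-52949954), whose gene model reaches to the KRT18 start, every start held a peak in all lists, and the start at -21.4 kb had folds of 14.8 to 46.4. The internal start of TP63 (chr3:189631389-189897276) at 158 kb, from which the shorter forms of the protein that lack the first activation domain are made, held a peak in 1 list only, an Hs578T list, of 304 bp at a fold of 2.46. ESR1, ELF5 and KRT5 had no peak at any of their starts.

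KRT8 was broadly covered around its principal start in both lines. The covered length was 3825 and 4001 bp in MDA-MB-231 control untreated lists, 3977 and 3992 bp with TWEAK, 3851 and 3978 bp in Fn14 KO untreated lists and 3178 and 2791 bp in Fn14 KO TWEAK lists. In Hs578T it was 3207 and 4001 bp in control untreated lists, 3120 and 4001 bp with TWEAK and 4001 bp in each of the 4 Fn14 KO lists. The window was thus full, or nearly so, in most lists, and covered length cannot rise further there. KRT18 (chr12:52948871-52952906) had 2862 and 4001 bp in MDA-MB-231 control untreated lists, 2604 and 2807 bp with TWEAK, 2769 and 2017 bp in Fn14 KO untreated lists and 2859 and 3300 bp in Fn14 KO TWEAK lists. In Hs578T it had 3107 and 4001 bp in control untreated lists, 2800 and 2971 bp with TWEAK and 4001 bp in all 4 Fn14 KO lists. Both keratin windows were full in all 4 Hs578T Fn14 KO lists and in 1 untreated control list of each line.

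TP63 was covered over a shorter stretch. The peak covered 1485 and 1456 bp in MDA-MB-231 control untreated lists, 1799 and 1630 bp with TWEAK, 1593 and 1150 bp in Fn14 KO untreated lists and 947 and 827 bp in Fn14 KO TWEAK lists. In Hs578T it covered 1258 and 1194 bp in control untreated lists, 1865 and 1789 bp with TWEAK, 1656 and 1133 bp in Fn14 KO untreated lists and 1346 and 1911 bp in Fn14 KO TWEAK lists. In control cells of both lines the TWEAK lists lay above the untreated lists without overlap, and in Fn14 KO cells the order was reversed in MDA-MB-231, whereas the lists overlapped in Hs578T. A start-site peak at TP63 was therefore present in all groups and its width varied among them.

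The loci carried more acetylation than the start sites alone. A gene without a start-site peak could still lie in an acetylated locus: GATA3 had 5208 to 8807 bp covered in its locus, ESR1 2430 to 8524 bp, KRT14 2099 to 4054 bp and ELF5 1016 to 2376 bp. KRT5 had no peak within 50 kb in any list. EHF was the most densely covered, with a median over lists of 20.2% of its locus, followed by KRT18 at 17.1% and KRT8 at 15.7%, against a median of 3.81% over all genes. GATA3 stood at 5.31%, TP63 at 3.77%, KRT14 at 3.0%, ELF5 at 0.837%, ESR1 at 0.697% and FOXA1 at 0.212%. The loci of KRT8 and KRT18 share 101 kb and those of ELF5 and EHF share 4.10 kb, so the values of these pairs are not independent. The ELF5 values rest on regions that belong as much to its neighbours, since the region at +74.7 kb, found in 16 of 16 lists, lies at the start of the catalase gene CAT and that at -57.3 kb lies between ELF5 and EHF. The loci held 62 of the 55219 regions obtained by merging the lists (a region had to have a peak in at least 2 lists), of which 29 had a peak in all 16 lists. By annotation, 14 of the 62 lay at a start site, 8 over another exon, 19 in an intron and 21 between genes. Regions are named by their distance in kb from the principal start along the gene's strand.

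**Figure D2:**
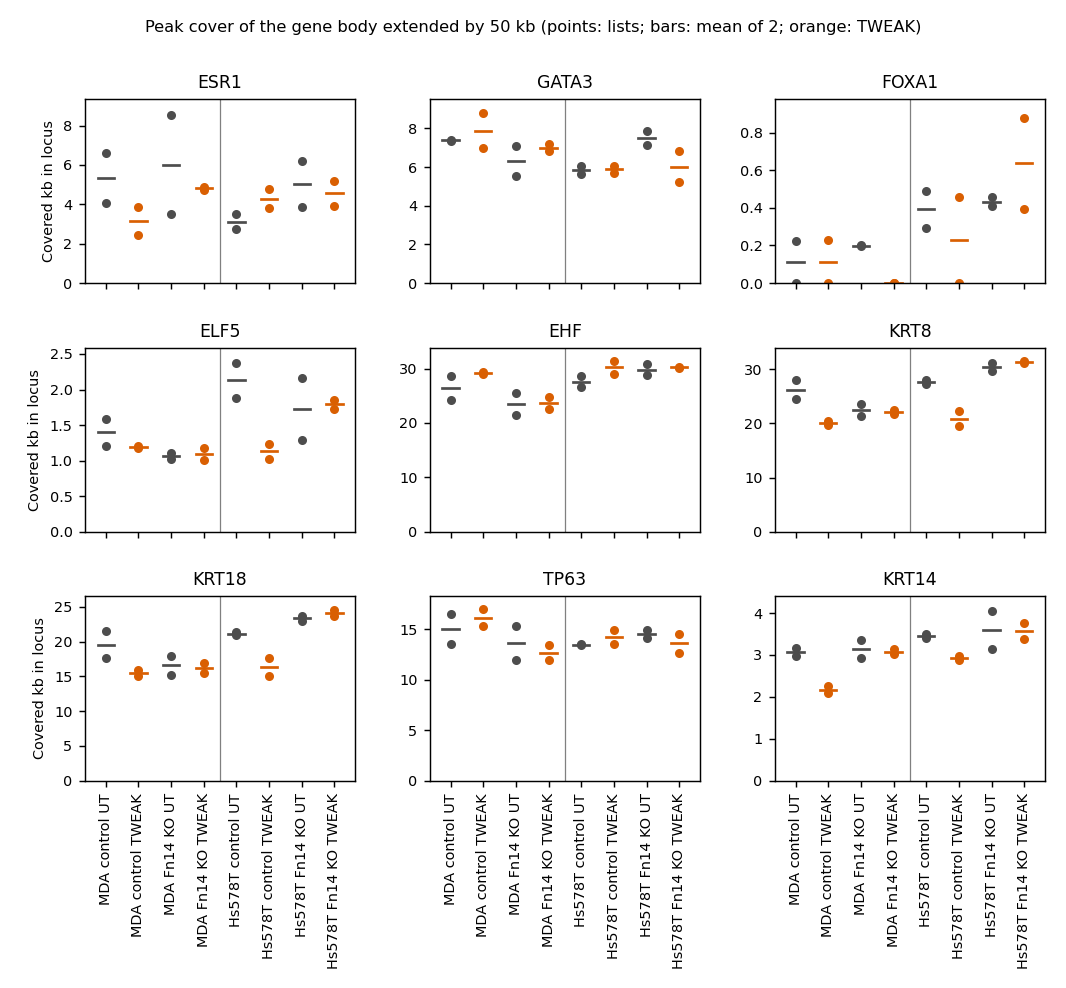
Covered kb in the locus (gene body and 50 kb on each side) of 9 genes by group, with a point for each list, a bar at the mean of the 2 lists, untreated in grey and TWEAK in orange; KRT5 had no peak and is left out. In control cells of both lines the orange points lie above the grey ones for EHF and below them for KRT8, KRT18, KRT14 and ELF5.

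The lines were compared next, with 8 lists each. More of the locus was acetylated in Hs578T for 6 of 9 genes with any peak: FOXA1, ELF5, EHF, KRT8, KRT18 and KRT14 passed the test and all were lower in MDA-MB-231. Luminal and basal genes were both among them. The mean covered length was 25676 bp in MDA-MB-231 and 29449 bp in Hs578T for EHF, 22690 and 27528 bp for KRT8, 16943 and 21236 bp for KRT18, 2864 and 3387 bp for KRT14, 1187 and 1696 bp for ELF5, and 106 and 423 bp for FOXA1. At EHF, KRT8 and KRT18 the lines lay further apart in Fn14 KO than in control cells. Untreated, the KRT8 means, MDA-MB-231 first, were 26198 and 27679 bp in control and 22394 and 30303.5 bp in Fn14 KO cells. With TWEAK they were 20068.5 and 20859.5 bp and then 22100.5 and 31271.5 bp. For EHF, untreated means were 26408.5 and 27607 bp in control and 23427.5 and 29749.5 bp in Fn14 KO cells. The Benjamini-Hochberg adjusted p, over all genes, of the exact permutation test (lists exchanged within genotype and treatment, two-sided) was 0.034 for EHF and KRT8, 0.037 for KRT18, 0.0137 for KRT14, 0.0214 for ELF5 and 0.028 for FOXA1. Among all 18066 loci with a peak, 39.2% passed as lower in MDA-MB-231 and 2.43% as higher, and the median difference over all loci was -767 bp, so a lower covered length was common in this line. The difference for ELF5 is one of the regions at the CAT start and at -57.3 kb, and that for FOXA1 rested on a region at +48.2 kb, over an exon of the neighbouring gene MIPOL1, which had a fold of 5.26, 4.25 and 4.33 in 3 of the 4 Hs578T control lists and 4.997 to 7.87 in the 4 Hs578T Fn14 KO lists, and was found in 2 of the 8 MDA-MB-231 lists. Within 10 kb of the FOXA1 gene the order was the other way, by 53.25 bp, and with that extension 1 of the 6 calls was left, that of KRT8. Without the first MDA-MB-231 control untreated list 1 call was left, that of KRT14, and without the second Hs578T control TWEAK list 2, those of KRT14 and ELF5. KRT14 and ELF5 were not called without the second MDA-MB-231 Fn14 KO untreated list, EHF without the second Hs578T control or either Hs578T Fn14 KO untreated list, and FOXA1 without the second MDA-MB-231 control TWEAK, either MDA-MB-231 Fn14 KO TWEAK or the first Hs578T control untreated list.

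At the start sites, the line difference in covered length did not pass the exact test for any of the genes. Among the 5 genes with a start-site peak in any list, 0 passed the exact permutation test on covered length in either direction, 1 had an unadjusted p below 0.05, and limma on the same values called 1, in each case KRT18. The mean at KRT18 was 2902 bp in MDA-MB-231 and 3610 bp in Hs578T (exact permutation test, p = 0.0247, adjusted p = 0.12). Over all 12766 start sites with a peak, 0.728% were higher in MDA-MB-231 and 8.59% lower. By highest fold the order at KRT18 was the other way, the MDA-MB-231 lists averaging 12.5 and those of Hs578T 10.9 (exact permutation test, adjusted p = 0.0487), and KRT18 was the only 1 of 5 members called by this test, against 11.7% of all start sites higher and 7.28% lower in MDA-MB-231. By limma KRT8 was called too, as lower in MDA-MB-231 (mean fold 12.5 against 15.6, limma, adjusted p = 0.00432). It was not called by the exact permutation test (adjusted p = 0.166). The KRT8 mean was lower in MDA-MB-231 only in Fn14 KO cells, at 10.84 against 18.29 untreated and 8.94 against 17.01 with TWEAK. In control cells the MDA-MB-231 mean was the higher one, at 18.87 against 16.1 untreated and 11.38 against 11.01 with TWEAK.

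The height of the highest peak in a locus separated the lines in both directions. GATA3 was the only member higher in MDA-MB-231, with a mean highest fold of 11.2 against 5.43 in Hs578T (exact permutation test, adjusted p = 0.0142), and all 8 MDA-MB-231 lists lay above all 8 Hs578T lists. EHF was lower in MDA-MB-231, at a difference of -5.28, as were KRT8 and KRT18, which share their highest peak, at -15.8 (exact permutation test, adjusted p = 0.0142 each). At the shared KRT8 and KRT18 peak the lines lay much further apart in Fn14 KO than in control cells. The control means, MDA-MB-231 first, were 35.96 and 40.77 untreated and 22.77 and 28.59 with TWEAK. The Fn14 KO means were 18.17 and 46.03 untreated and 16.51 and 41.35 with TWEAK. Over all loci, 12% passed as higher and 11.1% as lower. GATA3, a regulator of luminal fate, thus had taller peaks in MDA-MB-231, while the covered length of its locus did not pass the test.

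The GATA3 difference came from regions inside the gene. The region at +15.4 kb, over an exon (chr10:8068154-8071959), had folds of 9.72 and 12.6 in MDA-MB-231 control untreated lists and 16.3 and 17.99 with TWEAK, and of 9.83, 6.90, 8.68 and 7.77 in the Fn14 KO lists. In Hs578T it had folds of 6.51 and 4.46 in control untreated lists, 4.75 and 5.39 with TWEAK, and 5.62, 4.51, 5.64 and 5.45 in the Fn14 KO lists. All 8 MDA-MB-231 values were above all 8 Hs578T values, and the highest were the 2 MDA-MB-231 control TWEAK lists. By limma on log2(fold + 1), an alternative chosen after seeing the data that was fitted to all 55219 regions and is used here for the 28337 with a peak in every list, the line difference was 0.90 (SE 0.0996, adjusted p = 9.11e-05), and it was 0.42 (adjusted p = 0.00202) for the region at +11.2 kb and 0.19 (adjusted p = 0.0196) for the upstream start at -9.1 kb. The other regions called higher in MDA-MB-231 were the KRT18 start and TP63 +79.6 kb, giving 5 of 29 regions against 16.9% of all. Called lower in MDA-MB-231 were 8 of 29 against 29.1% of all, and these were EHF +3.9 and +33.0 kb, KRT8 +8.8, -0.7, -20.7 and -88.0 kb, TP63 +54.7 kb and ESR1 -43.8 kb. The exact permutation test on the same folds did not call the GATA3 region at -9.1 kb, KRT8 -0.7 kb or ESR1 -43.8 kb (adjusted p = 0.0771, 0.212 and 0.152). At KRT8 -0.7 kb the MDA-MB-231 mean fold was the lower one in Fn14 KO cells only. In control cells it was the higher one, at 18.87 against 16.1 untreated and 11.38 against 11.01 with TWEAK. The median line difference over all 55219 regions was -0.117 on the log2 scale. A share of 8 in 29 is near the share of all regions. The call of ESR1 -43.8 kb was kept in only 4 of the 16 cases in which a list was left out, those without the second MDA-MB-231 control list of either treatment, the first Hs578T control TWEAK list or the second Hs578T Fn14 KO untreated list (highest adjusted p = 0.101), and after each list's folds were divided by its median neither it nor KRT8 -0.7 kb was called. The call of KRT8 -0.7 kb was lost without the first Hs578T Fn14 KO untreated list (adjusted p = 0.0508) and that of the KRT18 start without the second Hs578T control untreated list (adjusted p = 0.0503). None of the 62 regions belonged to one line in this sense: a peak in all 8 lists of one line and in none of the other was found at 0.152% of all regions for MDA-MB-231 and 0.328% for Hs578T.

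TWEAK, the ligand of Fn14, was the treatment under study, and its effect was compared within the control and within the Fn14 KO cells. In control cells of both lines, acetylation rose at regions around EHF and TP63 and at the KRT18 start, and it fell at the KRT8 start and at the KRT8 region at -20.7 kb. None of the member regions passed the test in Fn14 KO cells. Some regions of a luminal and some of a basal transcription factor gene thus rose in the same cells. The principal starts of the neighbouring luminal keratins moved in opposite directions, but the region at the KRT18 start also holds upstream starts of KRT8. By limma on log2(fold + 1), 8 of 29 regions were higher with TWEAK in control cells, against 21.5% of the 28337 regions with a peak in every list. Lower were 4 of 29, against 12.7%, so rises and falls were common among such regions. In Fn14 KO cells limma called 0 of 29 regions in either direction, and 0 of them had an unadjusted p below 0.05. Of the 28337 regions with a peak in every list 0% were called higher and 0% lower, with 118 higher and 557 lower at an unadjusted p below 0.05. Over all 55219 regions limma called 235 higher and 334 lower in Fn14 KO cells. The exact permutation test of the same folds over 55219 regions called 0 in control or in Fn14 KO cells; its 36 arrangements within one genotype cannot give a p below 0.0556, and so 0 regions had an unadjusted p below 0.05.

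Among the 29 regions the largest change in control cells was inside TP63. The region at +79.6 kb, in an intron (chr3:189709825-189712074), had folds of 4.08 and 4.20 in MDA-MB-231 control untreated lists and 14.0 and 14.1 with TWEAK, and of 3.86 and 3.46 and of 11.99 and 11.7 in Hs578T control cells. In the 8 Fn14 KO lists its folds were 3.06 to 4.75. TWEAK thus raised the mean fold by a factor of 3.39 in MDA-MB-231 and 3.23 in Hs578T control cells, and the Fn14 KO lists stayed at the level of the untreated control lists, with ratios of 1.02 and 1.13. The change in control cells was 1.505 on the log2 scale (SE 0.0647, limma, adjusted p = 5.62e-08), and the difference between the changes in control and Fn14 KO cells was 1.42 (limma, adjusted p = 1.74e-06).

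Some other TP63 regions moved the same way. The region at +277.8 kb, beyond the end of the gene (chr3:189908013-189910316), had folds of 6.77 and 9.13 untreated and 17.6 and 19.6 with TWEAK in control MDA-MB-231 cells, and of 8.19 and 8.73 and of 13.5 and 15.0 in Hs578T control cells. In Fn14 KO lists it had folds of 7.78 to 10.9. The change in control cells was 0.92 (SE 0.101, limma, adjusted p = 9.57e-05) and differed from that in Fn14 KO cells by 0.93 (adjusted p = 0.00129). At +54.7 kb the change was 0.47 (limma, adjusted p = 0.000731), with folds of 7.33 and 8.11 rising to 10.1 and 11.8 in MDA-MB-231 and of 8.70 and 9.10 rising to 12.5 and 13.1 in Hs578T control cells. The start-site region itself (chr3:189629777-189631949) had folds of 5.07 and 5.79 untreated and 8.04 and 7.75 with TWEAK in control MDA-MB-231 cells, and of 4.11 and 4.60 and of 5.11 and 6.92 in Hs578T control cells, a change of 0.42 (SE 0.099, limma, adjusted p = 0.00963). TWEAK and untreated lists did not overlap at any of these 4 regions in control cells. In Fn14 KO lists the start-site folds were 5.20 and 4.24 untreated and 4.50 and 4.40 with TWEAK in MDA-MB-231, and 5.93 and 4.89 and then 4.8 and 4.97 in Hs578T, and the change in control cells exceeded that in Fn14 KO cells by 0.52 (limma, adjusted p = 0.03). One TP63 region was called lower, that at +188.7 kb, by 0.27 on the log2 scale (limma, adjusted p = 0.0149). The regions at +284.0, +306.5 and +310.7 kb, with a peak in every list, were not called. In MDA-MB-231 and Hs578T control cells their mean fold changed by factors of 1.35 and 1.003, 0.902 and 0.902, and 0.891 and 0.729.

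EHF was the other transcription factor gene with regions that gained height. The region at -21.6 kb, between genes (chr11:34597704-34601376), had folds of 12.4 and 16.5 in MDA-MB-231 control untreated lists and 32.1 and 33.4 with TWEAK, and of 14.7 and 14.8 and of 37.1 and 38.2 in Hs578T control cells. With Fn14 knocked out, the folds were 11.7 to 12.9 (MDA-MB-231) and 9.03 to 11.1 (Hs578T). The mean fold therefore changed by a factor of 2.27 and 2.55 in control cells of the lines and of 0.982 and 0.892 in Fn14 KO cells. The change in control cells was 1.22 (SE 0.0842, limma, adjusted p = 2.41e-06) and differed from that in Fn14 KO cells by 1.30 (SE 0.119, limma, adjusted p = 2.63e-05). The EHF region at +33.0 kb, tall in every list, had folds of 25.7 and 25.1 untreated and 31.6 and 34.2 with TWEAK in MDA-MB-231 and of 27.9 and 28.0 and of 32.5 and 38.5 in Hs578T control cells. Its change was 0.34 (limma, adjusted p = 0.0146), and that at +12.2 kb was 0.39 (limma, adjusted p = 0.00674). These regions thus rose in both lines, by more at the distal one at -21.6 kb than at those within the gene, although the difference between regions was not tested. The other EHF regions with a peak in every list were not called. In MDA-MB-231 and Hs578T control cells their mean fold changed by factors of 1.18 and 0.937 at -34.6 kb and of 1.15 and 1.11 at +61.7 kb. The factors were 1.006 and 1.009 at +3.9 kb and 1.005 and 0.943 at +21.0 kb.

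**Figure D3:**
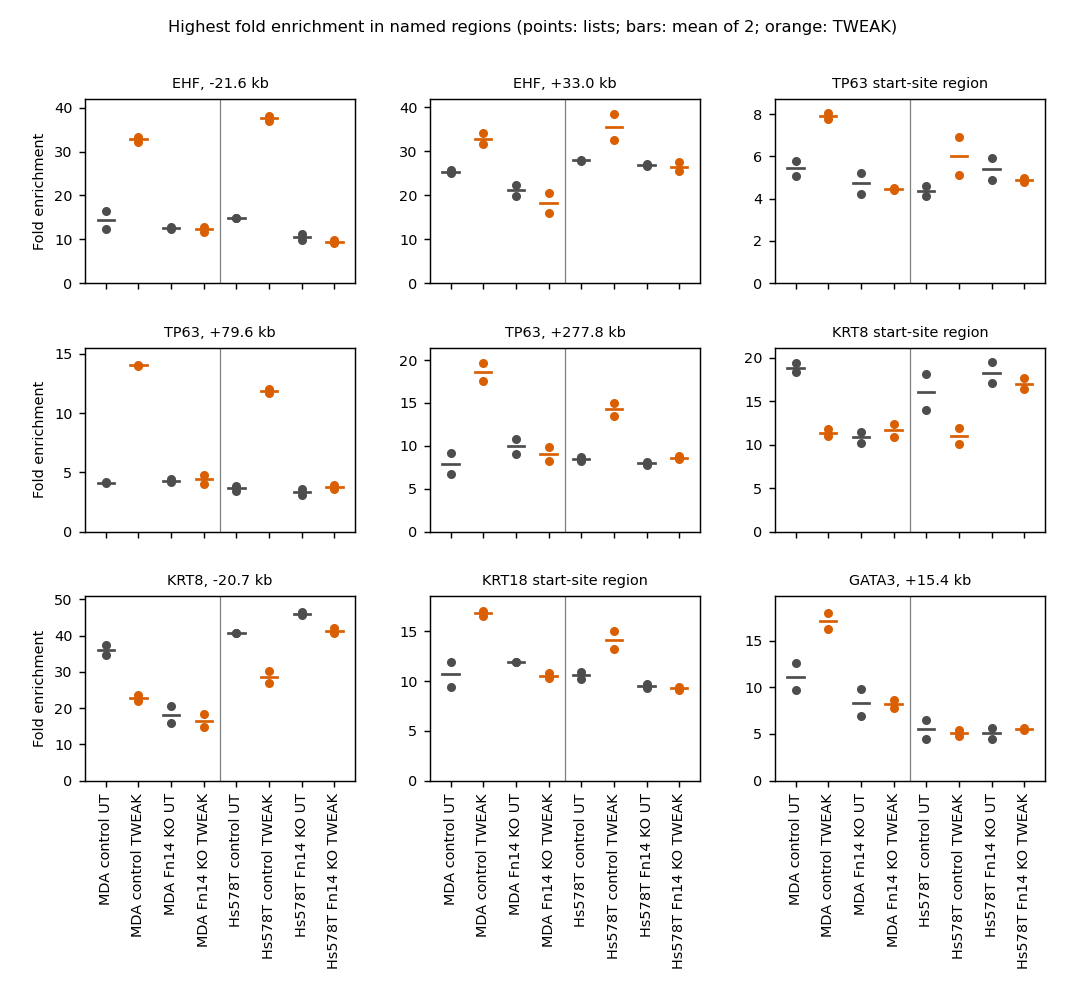
Highest fold enrichment over input in 9 regions in each group, with a point for each of the 2 lists, a bar at their mean, untreated in grey and TWEAK in orange. At EHF -21.6 kb and TP63 +79.6 kb the control TWEAK points stand well above all others, whereas at KRT8 -20.7 kb they lie below the control untreated points.

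KRT8 and KRT18 lie next to each other, with principal starts 44.04 kb apart, and encode partners of the same filament. The KRT8 start-site region (chr12:52901968-52909681) had folds of 19.4 and 18.3 untreated and 11.8 and 10.9 with TWEAK in control MDA-MB-231 cells, and of 18.1 and 14.0 and of 11.9 and 10.1 in Hs578T control cells. The Fn14 KO cells had folds of 11.5 and 10.2 untreated and 12.4 and 10.9 with TWEAK in MDA-MB-231, and of 19.5 and 17.1 and of 17.6 and 16.4 in Hs578T. TWEAK lists lay below untreated lists in control cells of both lines, and the MDA-MB-231 Fn14 KO lists were as low without TWEAK as the control lists were with it. Within 2 kb of the start, TWEAK lists also lay below untreated lists in MDA-MB-231 Fn14 KO cells, with a mean highest fold of 8.94 against 10.8 and a mean cover of 2984.5 against 3914.5 bp. The change in control cells was -0.59 (SE 0.096, limma, adjusted p = 0.0013), and it differed from that in Fn14 KO cells by -0.59 (limma, adjusted p = 0.0135). The region at -20.7 kb (chr12:52922700-52928819), which holds the KRT8 promoter sequence shown above, had folds of 34.6 and 37.3 untreated and 22.0 and 23.5 with TWEAK in control MDA-MB-231 cells, and of 40.7 and 40.8 and of 26.98 and 30.2 in Hs578T control cells. The Fn14 KO lists had folds of 20.4, 15.9, 18.2 and 14.8 in MDA-MB-231 and of 46.4, 45.7, 42.0 and 40.7 in Hs578T. Here too TWEAK lists were the lower ones in control cells of both lines, and they were so without overlap in Hs578T Fn14 KO cells as well. The change was -0.57 (SE 0.0906, limma, adjusted p = 0.00118), and the difference from Fn14 KO cells was -0.43 (limma, adjusted p = 0.0436).

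The region at the KRT18 start moved in the opposite direction. It also holds 5 upstream starts of KRT8, at -44.7 kb, so its change cannot be assigned to KRT18 alone. This region (chr12:52945280-52954143) had folds of 11.9 and 9.43 untreated and 17.1 and 16.5 with TWEAK in control MDA-MB-231 cells, and of 10.9 and 10.2 and of 13.2 and 15.0 in Hs578T control cells. Without Fn14, the folds were 10.3 to 11.9 (MDA-MB-231) and 9.14 to 9.73 (Hs578T). The fold rose with TWEAK in control cells by 0.50 (SE 0.0735, limma, adjusted p = 0.000716), and the difference from Fn14 KO cells was 0.60 (limma, adjusted p = 0.00283). The covered length in the KRT18 start-site window was shorter with TWEAK in both lines, although this difference did not pass a test, as given below.

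KRT14, the basal keratin without a start-site peak, had a lower distal region in control cells. Its region at +38.7 kb had folds of 16.2 and 17.2 untreated and 11.96 and 11.2 with TWEAK in MDA-MB-231 and of 10.3 and 12.5 and then 10.1 and 10.5 in Hs578T control cells, so the lists of Hs578T overlapped. The change was -0.31 (limma, adjusted p = 0.0314), and the call was lost without any 1 of the 4 MDA-MB-231 control lists, the second Hs578T control untreated list or either Hs578T control TWEAK list (highest adjusted p = 0.097). In Fn14 KO cells the mean folds were 10.1 untreated and 9.54 with TWEAK in MDA-MB-231, and 15.4 and 14.7 in Hs578T. The difference between the changes in control and Fn14 KO cells was -0.24 and did not pass (limma, adjusted p = 0.261).

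**Figure D4:**
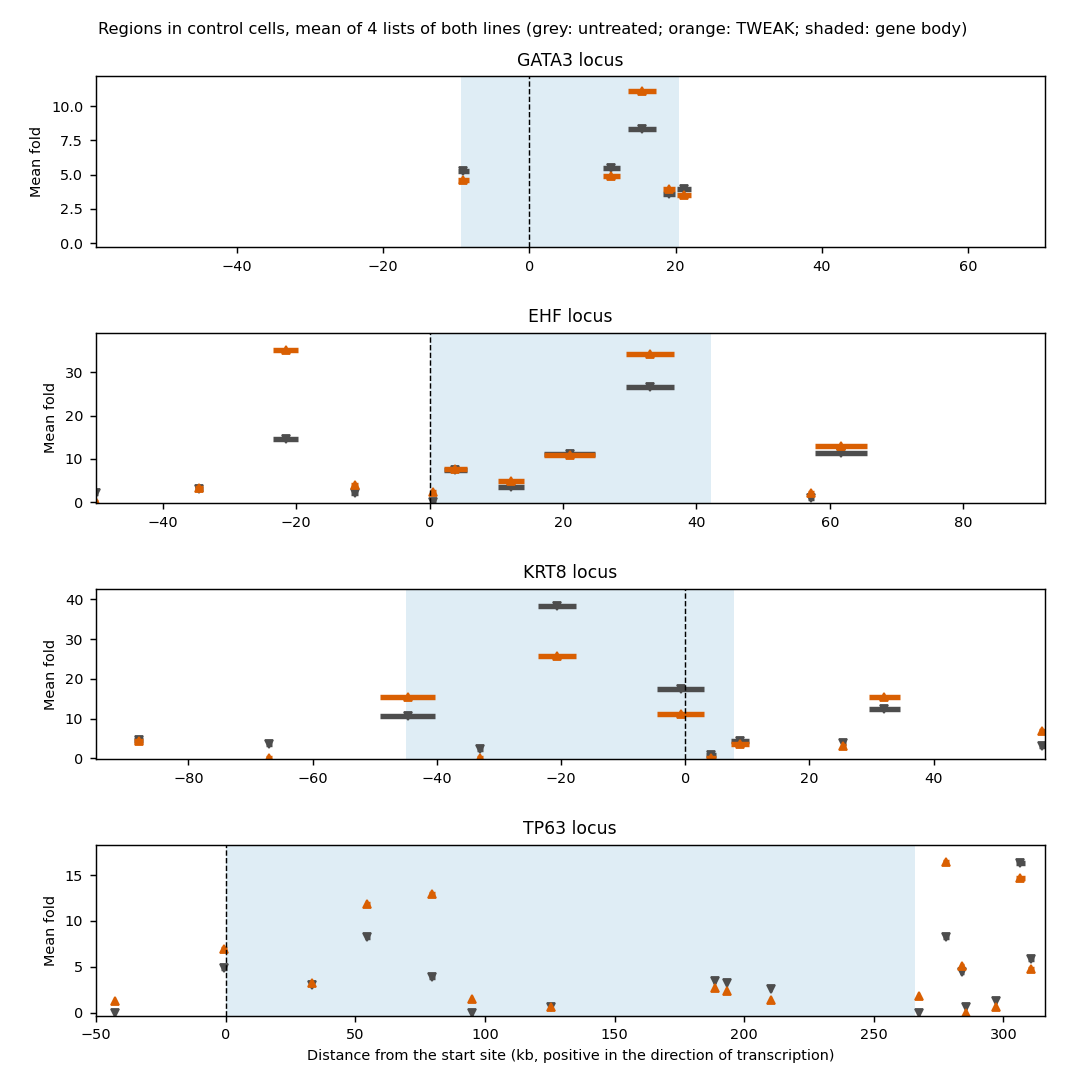
Mean fold of each acetylated region in the GATA3, EHF, KRT8 and TP63 loci over the 4 control untreated lists (grey) and the 4 control TWEAK lists (orange) of both lines, by distance in kb from the principal start along the gene's strand, with the gene body shaded. Orange stands above grey at EHF -21.6 kb and TP63 +79.6 kb and below it at KRT8 -20.7 kb.

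Covered length over a whole locus was shorter with TWEAK at KRT8, KRT18, KRT14 and ELF5 and longer at EHF in control cells of both lines, and of these KRT8 and KRT18 passed limma and none passed the exact test. In control cells the mean KRT8 locus cover was 26939 bp untreated and 20464 bp with TWEAK, and the KRT18 cover was 20341 and 15919 bp. KRT14 went from 3258 to 2552 bp, ELF5 from 1765 to 1165 bp, in the regions at the CAT start and at -57.3 kb, and EHF from 27008 to 29684 bp. In control cells of each line the TWEAK and untreated lists did not overlap for any of these 5 loci. The KRT8 locus had 24446 and 27950 bp untreated and 19655 and 20482 bp with TWEAK in control MDA-MB-231 cells, and 27334 and 28024 bp and then 19427 and 22292 bp in Hs578T control cells. The Fn14 KO lists had 23489 and 21299 bp untreated and 22411 and 21790 bp with TWEAK in MDA-MB-231, and 31049 and 29558 bp and then 31100 and 31443 bp in Hs578T. With 36 arrangements, the exact permutation test gave p = 0.0556 for each of these 5 loci in control cells, the smallest it can give, and an adjusted p of 0.185. By the exact permutation test, 0 of 9 members and 0 of 18066 loci were called in control cells, with 0 and 0 at an unadjusted p below 0.05, whereas limma on the same values called 2 members, KRT8 (adjusted p = 0.00175) and KRT18 (adjusted p = 0.0132), among 2911 loci. Over both genotypes together, the exact test called 0 of 18066 loci, with 3 members and 3074 loci at an unadjusted p below 0.05, and limma called 1 member, KRT8, and 924 loci. In Fn14 KO cells both tests called 0 members and 0 loci, and 0 loci had an unadjusted exact p below 0.05.

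At the start sites, the change in covered length with TWEAK did not pass a test. In control cells the mean difference was -697 bp at KRT18 and +422.5 bp at TP63, from 1348 to 1771 bp (exact permutation test, adjusted p = 0.377 each). By the exact permutation test 0 of 5 members and 0 of 12766 genes were called in control cells and 0 and 0 at an unadjusted p below 0.05, and limma called 0 members and 353 genes. Over both genotypes together the exact test called 0 members and 0 genes, with 0 and 1148 at an unadjusted p below 0.05, and limma called 0 and 129. The difference in the change between control and Fn14 KO cells was -1041 bp at the KRT18 start (exact permutation test, p = 0.00926, adjusted p = 0.589). For the loci it was -6812 bp at KRT8 (exact permutation test, p = 0.017, adjusted p = 0.369) and -4608 bp at KRT18 (exact permutation test, p = 0.0293, adjusted p = 0.369). The exact test of this difference called 0 start sites and 0 loci, with 969 start sites and 2335 loci at an unadjusted p below 0.05, and limma called 121 start sites, none of them of a member, and 623 loci, of which KRT8 was 1. On region folds the same difference was called by limma at 8 of 29 regions as higher, against 15.3% of all regions with a peak in every list. It was called at 2 of 29 as lower, against 5.51% of those. The 8 were the regions that rose in control cells and the 2 were the KRT8 regions at -0.7 and -20.7 kb. The exact permutation test called 0 of 55219 regions, with 11254 at an unadjusted p below 0.05. With single lists left out in turn, 3 of these limma calls were often lost. That of EHF +33.0 kb was lost in 10 of 16 cases (highest adjusted p = 0.065) and kept without the first control TWEAK list of either line, the second Hs578T Fn14 KO TWEAK list, or any MDA-MB-231 Fn14 KO list but the first untreated one. That of the TP63 start was lost in 10 (highest adjusted p = 0.0662) and kept without the second untreated list of any group or either Hs578T control TWEAK list. That of KRT8 -20.7 kb was lost in 13 (highest adjusted p = 0.0855) and kept without the first MDA-MB-231 Fn14 KO untreated, the second MDA-MB-231 Fn14 KO TWEAK or the second Hs578T control TWEAK list.

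Weak peaks appeared and disappeared with TWEAK. A region was counted as gained in a line and genotype when both lists with TWEAK had a peak there and both lists without it had none, and as lost in the opposite case. In MDA-MB-231 control cells 3 of 62 regions were gained (EHF +0.5, TP63 +95 and TP63 +267.5 kb), against 5.58% of all regions, and 5 were lost (KRT8 -67.0, KRT14 -26.1, and ESR1 -138.7, +278.8 and +282.5 kb), against 4.49%. In Hs578T control cells 4 were gained (EHF +57.2, and ESR1 +150.9, +154.6 and +328.6 kb), against 5.09%, and 4 were lost (ELF5 -57.3, KRT8 -33.1 and -67.0, and ESR1 +282.5 kb), against 4.65%. Of these, ESR1 +328.6 kb lies beyond the end of ESR1, over an exon of the neighbouring gene SYNE1. No region was gained in both lines, and KRT8 -67.0 kb and ESR1 +282.5 kb were lost in both. In Fn14 KO cells 0 were gained in either line, against 0.321% (MDA-MB-231) and 1.05% (Hs578T) of all regions, and 1 was lost in each, ESR1 -91.1 kb in MDA-MB-231, against 1.35%, and KRT8 -67.0 kb in Hs578T, against 0.829%. With 2 lists a group these counts carry no test, and 4.84 to 8.06% of the 62 regions were gained or lost in control cells of a line.

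The peaks that came and went were low. The ESR1 region at +282.5 kb had folds of 2.83 and 3.42 in MDA-MB-231 and 3.23 and 4.01 in Hs578T control untreated lists, no peak in the 4 control TWEAK lists, and folds of 2.77 to 4.77 in the 8 Fn14 KO lists. The KRT14 region at -26.1 kb, at the start of the neighbouring keratin KRT16, had no peak in the 2 MDA-MB-231 control TWEAK lists and folds of 2.79 to 4.25 in the other 14 lists. The KRT8 region at -67.0 kb had no peak with TWEAK in control cells of either line or in Hs578T Fn14 KO cells, and folds of 2.85 to 4.85 elsewhere. These folds were below the median fold of the peaks in any list, which was 5.0 to 5.89, and a list without a peak is not a list without acetylation.

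The Fn14 genotype was compared within each line and treatment, and the difference was averaged over the untreated and the TWEAK lists. Higher acetylation in control than in Fn14 KO cells was seen for the EHF locus, whose mean highest fold was 31.0 in control and 23.2 in Fn14 KO lists, a difference of -7.87 (exact permutation test, adjusted p = 0.0307). Without TWEAK the means were 25.4 in control and 21.2 in Fn14 KO lists of MDA-MB-231 and 27.9 and 26.8 in Hs578T. With TWEAK they were 33.1 and 18.2 in MDA-MB-231 and 37.8 and 26.5 in Hs578T. The averaged difference thus includes the change with TWEAK in control cells. The EHF locus was the only one of 9 members called by this measure, among 21.3% of all loci lower and 0.62% higher in Fn14 KO lists. By covered length, 0 of 9 members and 0 of 18066 loci were called by the exact permutation test, with 1 member, KRT14 (+441 bp in Fn14 KO lists, p = 0.0247, adjusted p = 0.203), and 3443 loci at an unadjusted p below 0.05, while limma called 1 member, KRT8, and 2031 loci. At the start sites 0 of 5 members and 0 of 12766 genes were called on covered length, with 0 and 1150 at an unadjusted p below 0.05, and limma called 0 members and 241 genes. Averaged over the lines, folds were lower in Fn14 KO lists over the genome, with a median difference of -1.92 in fold over all loci and of -0.110 on the log2 scale over all 55219 regions. Over regions with a peak in every list, the median fold of a list was 7.37 to 8.41 in MDA-MB-231 control and 6.27 to 7.33 in MDA-MB-231 Fn14 KO lists. In Hs578T it was 7.39 to 8.05 in control and 7.56 to 7.92 in Fn14 KO lists, without such a fall. Of the regions with a peak in every list, 36.4% were called lower and 4.5% higher by limma, against 12 and 2 of the 29 member regions. The 2 higher ones were KRT8 +8.8 kb and TP63 +188.7 kb. The 12 lower ones included all 8 regions that rose with TWEAK in control cells. Those rises enter the averaged genotype difference, so this overlap is not a separate result.

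Some peaks were found in one genotype only. Without TWEAK, 0 of the 62 regions carried the peak in each control list and in no Fn14 KO list of a line, which was the case at 2.08% (MDA-MB-231) and 2.25% (Hs578T) of all regions. With TWEAK there were 3 in MDA-MB-231 (EHF +0.5 and -11.2 kb and TP63 +95 kb), against 6.21%, and 3 in Hs578T (EHF +57.2 kb and ESR1 +150.9 and +154.6 kb), against 6.93%. Found in Fn14 KO lists only were 2 untreated in MDA-MB-231 (ESR1 -179.3 and -91.1 kb), against 2.14%, and 3 in Hs578T (TP63 +125.4 and +285.7 kb and ESR1 -179.3 kb), against 2.02%. With TWEAK, these were 5 in MDA-MB-231 (KRT8 -67.0, KRT14 -26.1, and ESR1 -179.3, +278.8 and +282.5 kb), against 3.21%, and 6 in Hs578T (ELF5 -57.3, KRT8 +4.2 and -33.1, TP63 +210.3 and +285.7, and ESR1 +282.5 kb), against 6.55%. The ESR1 region at -179.3 kb had a peak in all 8 Fn14 KO lists, at folds of 2.87 to 4.17, and in 1 of the 8 control lists, at 3.77. Beside the genotype results in Hs578T stands PECAM1, an endothelial marker, whose start site was covered over 1773 to 3099 bp in the 4 Hs578T Fn14 KO lists, over 1166 bp in 1 Hs578T control list and over 218 bp in 1 MDA-MB-231 list; of the 7 markers of other cell types, 6 had no start-site peak in any list, and the part of PECAM1 in the results was not tested.

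Further genes of each lineage were counted in the same way. Of 25 further luminal genes, 15 had a start-site peak in all 16 lists, among them the keratins KRT19 and KRT7, 5 had one in some lists, and 5 in none, among them CDH1 (the adhesion protein of epithelial junctions), PGR (the progesterone receptor), ESRP1 (an epithelial splicing regulator) and PRLR (the prolactin receptor). Of 23 further basal genes, 7 had one in all lists, among them SFN, EGFR, ITGA6 and ITGB4, 5 in some lists and 11 in none, with the keratins KRT6A, KRT6B and KRT17 among the latter. ITGA6 and ITGB4 encode integrins that anchor basal cells to the basement membrane. The basal keratin gene KRT16 had a start-site peak in 6 MDA-MB-231 and 8 Hs578T lists. Both lists stand beside the 54.4% of all genes with a start-site peak in every list, and no test was made of them.

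Letters shared by the acetylated regions were counted as well. Of the 62 region centres, 17 held the AP-1 letters TGACTCA and 17 the GATA letters AGATAA, which is 27.4% each, against 19.5% and 15.6% of all region centres. CCAAT was found in 20, which is 32.3%, against 31.8%, and TATAAA in 15, GC boxes in 8, ETS letters in 7, forkhead letters in 5 and the NF-kappaB letters in 0. Over all region centres, 17.0% held a GC box, 21.0% the ETS letters, 5.73% the forkhead letters and 0.496% the NF-kappaB letters. Of the 19 RefSeq promoters of the member genes, 10 held CCAAT, 7 a GC box, 4 the ETS letters, 2 each TATAAA and the forkhead letters, 1 each the AP-1 and GATA letters and 0 the NF-kappaB letters, which 0.370% of all promoters held. AP-1 letters were found in 4.95% of all promoters, GATA letters in 10.3% and forkhead letters in 3.42%. The counts describe letters and not binding.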

How the data were processed

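Chromatin of MDA-MB-231 and Hs578T cells was sheared to 200 to 500 bp and precipitated for H3K27ac. The authors trimmed reads (Trimmomatic), aligned them to hg38 (Bowtie2), called broad peaks in each sample against input (MACS2) and removed blacklisted regions; versions are not given in the sources used here. The deposited peak lists give for each peak a score, the fold enrichment (a ratio to input), and -log10 p and -log10 q; of these, the fold and, in an alternative, the -log10 q were used, and the score was not. No column belonged to another sample.

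Start sites and gene bodies were those of GENCODE 44, and each gene's principal start was that of its MANE transcript. Peaks were intersected with windows of 2 kb around the start and gene bodies extended by 50 kb. Lists were merged into regions, kept where at least 2 lists had a peak. Covered bp, and the highest fold (0 without a peak), were compared by exact permutation of lists within the other 2 factors (36 arrangements where 1 genotype was tested; two-sided) with Benjamini-Hochberg adjustment over all genes or regions at 0.05. limma 3.58.1 (R 4.3.3) on covered bp was an alternative, and limma on log2(fold + 1), with a pseudocount of 1, fitted to all regions, was an alternative chosen after seeing the data, as were the values without the Hs578T Fn14 KO lists and folds divided by each list's median. Scripts ran in Python 3.11.15 with numpy 2.4.6 and matplotlib 3.10.9 and were tested on simulated data. Other alternatives were the window (1 and 5 kb), the extension (10 and 100 kb), a -log10 q minimum, lists trimmed to equal length, all starts together, each list left out, and the replicate block. Reads and depth were not used here.

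The 10 genes, the further gene lists and the tests were chosen with earlier results of these data known. All 10 genes were named, with the start-site region and at most 4 further regions a locus that were gained, lost or differed by genotype or line, widest first. For these, neighbouring genes were named where a region lay at their start. The regions GATA3 +11.2 and +15.4, FOXA1 +48.2, EHF -34.6, -21.6, +3.9, +12.2, +21.0, +33.0 and +61.7, KRT8 +8.8, -20.7 and -88.0, TP63 +54.7, +79.6, +95, +188.7, +277.8, +284.0, +306.5 and +310.7, KRT14 +38.7 and ESR1 -91.1, -43.8, +150.9, +154.6 and +328.6 kb were named after their values were seen.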

Additional observations from a re-analysis of the deposited data

Results flagged for a closer look

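At 10 regions the change with TWEAK differed between control and Fn14 KO cells by limma on log2(fold + 1) (limma's adjusted p of the others is given with each region above). The difference was 1.30 at EHF -21.6 kb, 0.49 at EHF +12.2 kb (adjusted p = 0.0178), 0.46 at EHF +33.0 kb (adjusted p = 0.0289), 0.52 at the TP63 start, 0.56 at TP63 +54.7 kb (adjusted p = 0.00287), 1.42 at TP63 +79.6 kb, 0.93 at TP63 +277.8 kb, 0.60 at the KRT18 start, -0.59 at the KRT8 start and -0.43 at KRT8 -20.7 kb.

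In other cases every list of one group moved up and every list of the other moved down, without a test of the difference in that line alone. The ESR1 locus lost cover with TWEAK in control MDA-MB-231 cells, by a mean of -2193.5 bp, and gained 1165.5 bp in Hs578T control cells, a difference of -3359 bp that was not tested. The changes in control and Fn14 KO cells of Hs578T differed by -7787.5 bp at the KRT8 locus and by -5592.5 bp at the KRT18 locus. In MDA-MB-231 they differed by -1412.5 bp and by a fold of 7.497 at the KRT18 start, and by 728.5 bp at the TP63 start. None of these 5 differences was tested within the line.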

How the results depend on the processing

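The 6 loci called between lines on covered bp became 1 with a -log10 q of at least 8.38 (GATA3) and 1 with a 10 kb extension, where the FOXA1 difference turned to +53.25 bp. Start sites called between lines went from 0 to 1 by highest fold, 1 by limma on bp and 2 by limma on log2 folds. For TWEAK, genotype and their interaction the 0 calls became 1 each by limma on bp and 3, 7 and 4 by limma on log2 folds, and genotype gave 1 by highest fold. Counting all starts together, 5 genes instead of 3 had a peak in every list.

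Regions lost with TWEAK in control cells of either line went from 7 to 1 (-log10 q), 4 (trimmed lists) and 4 (10 kb), and those lost in Fn14 KO cells from 2 to 0, 1 and 1. Those gained in Fn14 KO cells went from 0 to 2 with trimmed lists, and those found in Fn14 KO cells only from 12 to 3, 7 and 7. The cause of these changes was not tested beyond the smaller number of peaks or bases that the settings leave.

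Leaving out each list in turn gave 1 to 6 loci called between lines, 0 to 3 regions gained and 2 to 7 lost in Fn14 KO cells, 7 to 10 gained and 7 to 10 lost in control cells, 6 to 8 found in control cells only and 12 to 14 in Fn14 KO cells only. The other counts did not move.

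The labels number the lists of each group but do not say what a number marks. The replicate differences of 12 pairs of groups correlated at -0.716 to 0.239, above 0.1 in 3, so the numbers were not taken as pairs, and with the replicate block the line contrast called 1 locus, KRT14.

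The exact permutation test on log2 folds called none of the 12 regions that limma called with TWEAK in control cells (adjusted p = 0.161 to 0.268) and none of the 10 interactions (0.214 to 0.320), with 36 arrangements unable to reach 0.05 for the former. With folds divided by each list's median, the calls for TWEAK and the interaction were kept and that of TP63 +188.7 kb was added to the interactions (adjusted p = 0.0406). With the -log10 q minimum the TP63 start, TP63 +188.7 kb and KRT14 +38.7 kb lost their TWEAK calls (adjusted p = 0.538, 1 and 0.0545), the TP63 start and KRT8 -20.7 kb their interactions (0.458 and 0.0739), and the 3 GATA3 regions (0.0725 to 0.565), KRT8 +8.8 and -88.0 kb (0.0837 and 0.761) and ESR1 -43.8 kb (1) their line calls. With trimmed lists TP63 +188.7 kb lost its TWEAK call (0.0977) and ESR1 -43.8 kb its line call (0.300). Depth limits these lists to an unknown degree, since reads were not used here.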

Other observations

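Among mesenchymal markers, 6 of 10 had a start-site peak in all 16 lists, 2 in some and 2 in none, and among 6 epithelial markers 3 had one in all lists and 3 in none.

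The genes elsewhere in the genome whose start-site cover followed that of EHF most closely over the 16 lists were TBC1D22B (Pearson r = 0.94) and the overlapping genes TMEM217 and TMEM217B (0.94 each). For FOXA1 they were PLA2G15 (0.81), CMAS (0.80) and MAP4K4 (0.74). The lists were made with the same caller, EHF and FOXA1 had a start-site peak in few of them, and these values describe likeness of pattern only.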
